A study of Drosophila melanogaster with 12 samples.

Results

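The transposons mdg1, 412, blood, Stalker, Stalker2 and Stalker4 of Drosophila melanogaster were followed in an Egg chromatin immunoprecipitation (ChIP-seq) experiment. They were chosen by name and make up 6 of the 175 transposon rows in a deposited table of 35502 rows, each row being a transcript or a transposon family. Their identifiers there are FBgn0002697 (mdg1), FBgn0000006 (412), FBgn0000199 (blood), FBgn0003519 (Stalker), FBgn0063455 (Stalker2) and FBgn0063897 (Stalker4). The cells were ovarian somatic cells (OSCs), a cultured line of the somatic cells that surround the fly germ line, taken 4 days into RNA interference knockdown and crosslinked with formaldehyde. Knockdown targets in the labels were Egg (siEgg), Piwi (siPiwi), Wde (siWde) and EGFP (siEGFP), a jellyfish protein that serves as the control target, and each had an Egg ChIP and an input, the chromatin before immunoprecipitation. All groups were the same cells in the same medium and differed in the target of the knockdown. The table held 1 column each for the siEgg ChIP, siEgg input, siEGFP ChIP and siEGFP input, without a replicate number, while the labels list 2 samples for each of these groups. Of the labelled libraries, those of siPiwi and siWde were not used here.

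Egg, or Eggless, is the fly SETDB1, which methylates lysine 9 of histone H3 and so marks silent chromatin. In OSCs the Argonaute protein Piwi, guided by short piRNAs, finds nascent transposon transcripts in the nucleus, and Egg with its cofactor Windei (Wde) acts in the silencing that follows. The 6 elements are retrotransposons of the gypsy superfamily: they move through an RNA copy and carry long terminal repeats (LTRs) at both ends, with genes for a capsid-like protein and for reverse transcriptase between them. mdg1 is a standard readout of piRNA-guided silencing in OSCs, and 412 was among the first dispersed repeats cloned from the fly. blood was found as an insertion in the eye colour gene white, Stalker was found as a mobile element in unstable fly stocks, and Stalker2 and Stalker4 are named after it.

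Values were the reads of a row divided by its length and by the size of the library (RPKM), from which whole reads were recovered. The libraries held 1698148 reads for the siEgg ChIP, 2293964 for the siEgg input, 1796866 for the siEGFP ChIP and 2183061 for the siEGFP input. A row gathers the reads of all copies of a family, so a value is a mean over copies at many places in the genome, and more copies bound cannot be told apart from more Egg per copy. With 1 column per group there was no spread between replicates. Each ratio is given with a 95% counting interval, which covers counting error only, and each comparison is between libraries. DNA reads do not show whether Egg was depleted or whether the cells are OSCs.

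All 6 rows were well covered, with between 1019 and 4294 reads in a library and recovered row lengths of 7256 to 7672 bases, close to whole elements. Their 16237 reads were 0.956% of the siEgg ChIP (exact binomial interval 0.942% to 0.971%), and their 17050 reads were 0.743% of the siEgg input (0.732% to 0.754%). In siEGFP they made up 0.884% of the ChIP (0.870% to 0.897%) and 0.717% of the input (0.706% to 0.728%). As a share of all transposon reads they took 8.19% of the siEgg ChIP and 7.29% of its input, against 6.15% of the siEGFP ChIP and 7.12% of its input. The siEGFP share depends on diver, an LTR retrotransposon that took 40005 of the 258214 transposon reads of the siEGFP ChIP (15.5%) and 4.31% of those of the siEgg ChIP. Without diver the 6 elements held 8.56% of the siEgg ChIP and 7.36% of its input, against 7.28% of the siEGFP ChIP and 7.19% of its input, so their share of the siEGFP ChIP was no longer below that of its input.

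The inputs show how much of each family the genome of these cells holds. Set against the median gene (6.74 RPKM in the siEgg input and 7.26 RPKM in the siEGFP input), mdg1 was the most abundant, at 35.1 gene equivalents in siEgg and 31.8 in siEGFP. blood followed at 31.3 in siEgg and 28.3 in siEGFP, Stalker at 29.3 in siEgg and 25.5 in siEGFP, and Stalker4 at 27.7 in siEgg and 24.5 in siEGFP. 412 had 15.3 in siEgg and 14.3 in siEGFP. Stalker2 was the scarcest, at 9.92 in siEgg and 8.56 in siEGFP. Every element had the higher value in siEgg, where the median gene was lower. The difference between the inputs depends on that measure and is not read as a difference in copies. Related families can share reads, and how the authors counted reads that fit several rows is not given in the sources used here. The gene equivalents are therefore abundances of similar sequence and not counts of insertions.

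mdg1 had 298 RPKM in the siEgg ChIP and 237 in the siEgg input, against 319 in the siEGFP ChIP and 231 in the siEGFP input. blood had 255 RPKM in the siEgg ChIP and 211 in the siEgg input, against 275 in the siEGFP ChIP and 206 in the siEGFP input. Stalker2 had 78.2 RPKM in the siEgg ChIP and 66.9 in the siEgg input, against 89.9 in the siEGFP ChIP and 62.2 in the siEGFP input. In these 3 elements both ChIPs lay above both inputs, and the siEGFP ChIP was the highest of the 4 libraries. 412 had 131 RPKM in the siEgg ChIP and 103 in the siEgg input, against 107 in the siEGFP ChIP and 104 in the siEGFP input. Stalker had 268 RPKM in the siEgg ChIP and 198 in the siEgg input, against 198 in the siEGFP ChIP and 185 in the siEGFP input. Stalker4 had 259 RPKM in the siEgg ChIP and 186 in the siEgg input, against 199.7 in the siEGFP ChIP and 178 in the siEGFP input. In 412, Stalker and Stalker4 the siEgg ChIP was the library that stood out, and the siEGFP ChIP was 1.03, 1.07 and 1.12 times its input, as the plot of RPKM by library shows.

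**Figure D1:**
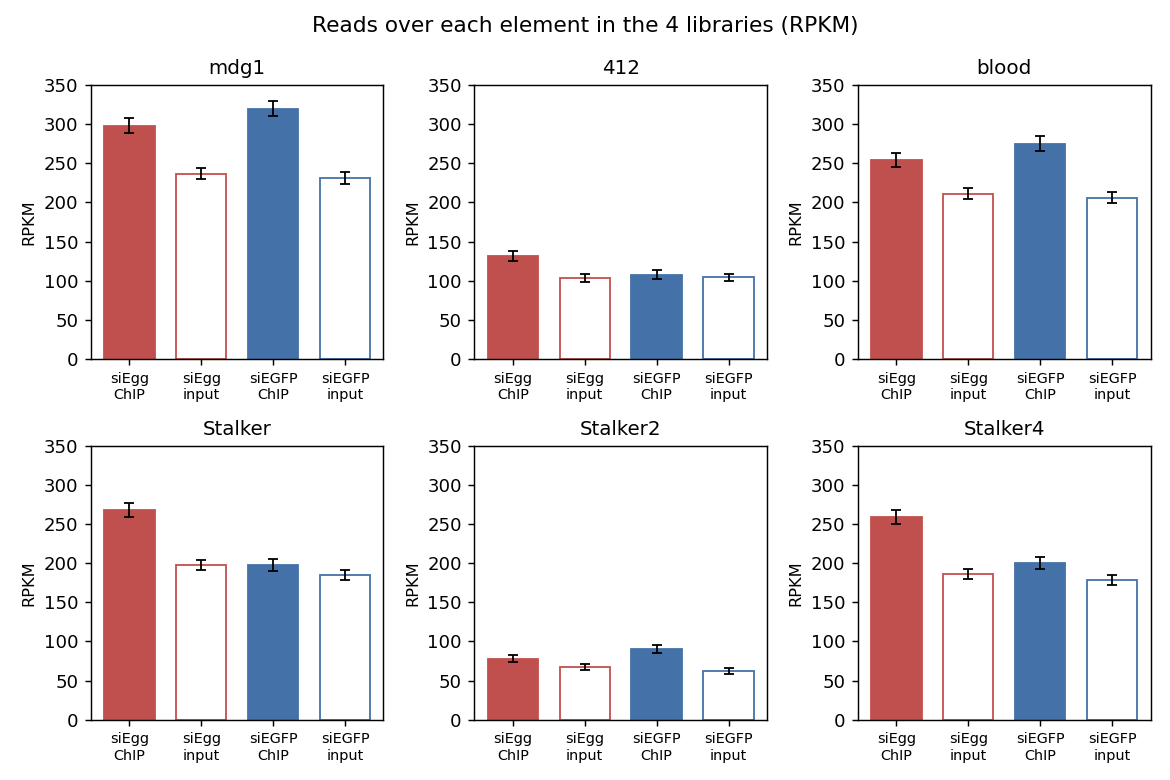
RPKM (y axis) of each element in the siEgg ChIP, siEgg input, siEGFP ChIP and siEGFP input (x axis), with 95% Poisson counting intervals as error bars. mdg1, blood and Stalker2 are highest in the siEGFP ChIP (319, 275 and 89.9 RPKM), while 412, Stalker and Stalker4 are highest in the siEgg ChIP (131, 268 and 259 RPKM).

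The siEgg ChIP against its input asked what signal over these elements was left after knockdown of Egg. All 6 elements lay above input by less than 2-fold, a size that 1 of 122 transposons reached (0.82%), with intervals above 0 in 6 of 6, where 55 of 122 transposons tested did (45.1%). Among the 51 transposons with at least 4477 reads over the 4 libraries, the number of Stalker2, which is the least-read element, 32 did (62.7%). On the log2 scale Stalker4 was highest at 0.47 (interval 0.41 to 0.55) and Stalker next at 0.44 (0.37 to 0.51). 412 had 0.35 (0.25 to 0.45), mdg1 0.33 (0.27 to 0.40), blood 0.27 (0.20 to 0.34) and Stalker2 0.22 (0.10 to 0.35). No neighbours in this order differed by an interval that excluded 0. Stalker4 and Stalker ranked 2 and 4 among the 51 well-read transposons, 412 ranked 9, mdg1 11, blood 18 and Stalker2 22.

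The siEGFP ChIP against its input asked where Egg sits in cells that keep it. Intervals lay above 0 for 5 of the 6 elements, against 59 of 122 transposons (48.4%) and 30 of the 51 well-read ones (58.8%), and none reached 2-fold, a size that 5 of the 122 transposons reached (4.1%). The elements fell into an upper and a lower set. Stalker2 had a log2 ratio of 0.53 (0.41 to 0.65), mdg1 0.47 (0.40 to 0.53) and blood 0.42 (0.35 to 0.49), while Stalker4 had 0.16 (0.09 to 0.24), Stalker 0.10 (0.02 to 0.17) and 412 0.05 (-0.06 to 0.15). The step between blood and Stalker4 was 0.26 (0.15 to 0.36), and no other neighbours in the order differed beyond their counting error. The 3 elements lowest in siEGFP were the 3 highest in siEgg by their values. The place of 412 among these is not resolved, since mdg1 minus 412 in siEgg was -0.02 (-0.13 to 0.10). The elements spread less in siEgg, with a standard deviation over the 6 elements of 0.10 in siEgg and 0.21 in siEGFP. The same was seen over the genes tested, with 0.47 in siEgg and 0.74 in siEGFP. Over the 51 well-read transposons it was 0.36 in siEgg and 0.69 in siEGFP. These 2 values are widened by diver, which had 2.35 in siEgg and 4.48 in siEGFP. The quartiles of the 51 transposons were 0.03 and 0.31 in siEgg, and -0.03 and 0.41 in siEGFP.

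**Figure D2:**
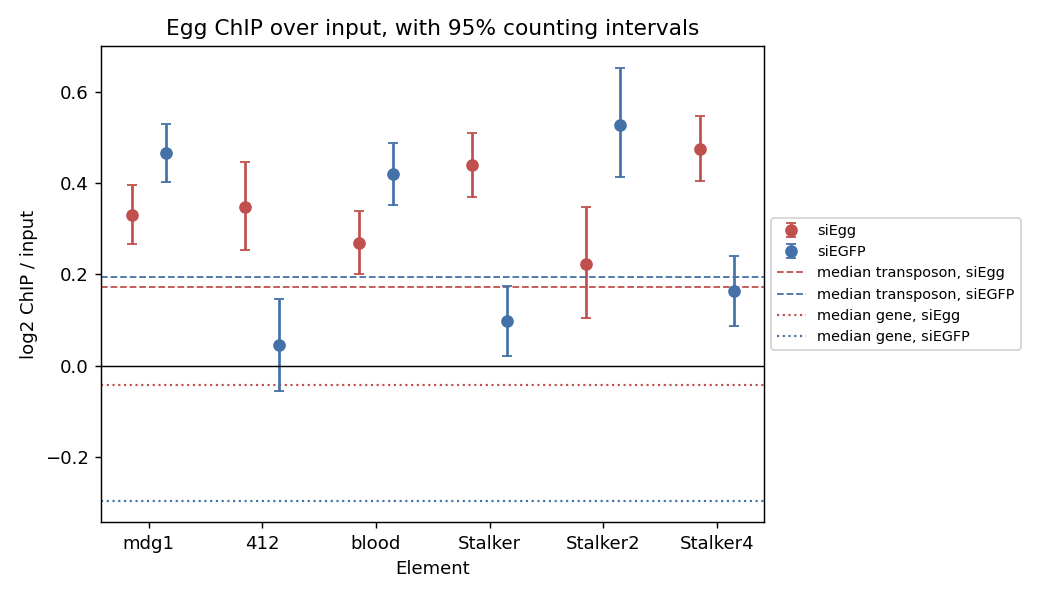
log2 of ChIP over input RPKM (y axis) of each element (x axis) in siEgg (red) and siEGFP (blue), with 95% counting intervals. Dashed lines give the median of the 122 transposons tested (0.17 in siEgg, 0.19 in siEGFP) and dotted lines the median of 12487 genes (-0.04 in siEgg, -0.30 in siEGFP); in siEgg every element is above both medians, and in siEGFP Stalker4, Stalker and 412 are below that of transposons.

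The median over the 6 elements was 0.34 in siEgg and 0.29 in siEGFP, an order that centring or scaling by genes reversed. Over all transposons tested it was 0.17 in siEgg and 0.19 in siEGFP, and over all genes tested -0.04 in siEgg and -0.30 in siEGFP. In siEGFP no element lay near the median of the 6, which falls between the upper and the lower set.

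Setting siEgg against siEGFP asked how far the ChIP signal over an element depends on Egg. 412, Stalker and Stalker4 had more ChIP over input in siEgg, and mdg1, blood and Stalker2 had less. The change, siEgg minus siEGFP on the log2 scale, was 0.34 for Stalker (0.24 to 0.45), 0.31 for Stalker4 (0.21 to 0.42) and 0.30 for 412 (0.16 to 0.44). It was -0.14 for mdg1 (-0.23 to -0.05), -0.15 for blood (-0.25 to -0.05) and -0.30 for Stalker2 (-0.47 to -0.13). As ratios of the 2 enrichments these are 1.27, 1.24 and 1.23 for Stalker, Stalker4 and 412, and 0.910, 0.901 and 0.810 for mdg1, blood and Stalker2. None reached a 2-fold change, as 1 higher (0.82%) and 3 lower (2.46%) of the 122 transposons did.

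By the interval alone 3 of the 6 elements were higher in siEgg and 3 were lower. Such calls were common among transposons, so the count is not read as a trait of these elements. Of the 51 well-read transposons 17 were higher (33.3%) and 19 were lower (37.3%). Of all 122 transposons 31 were higher (25.4%) and 30 were lower (24.6%). In the order of change over the 51 transposons, Stalker, Stalker4 and 412 stood at places 8, 9 and 10 from the highest, and Stalker2, blood and mdg1 at places 11, 17 and 21 from the lowest. The 3 elements that were higher lay side by side in that order, as its plot shows.

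**Figure D3:**
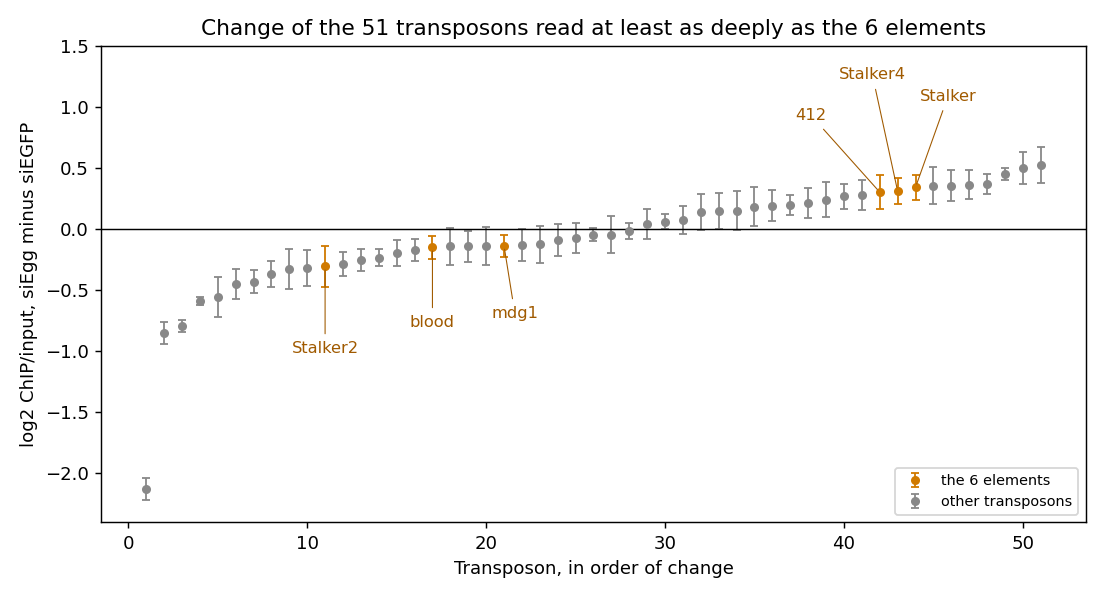
Change in log2 ChIP/input, siEgg minus siEGFP (y axis), of the 51 transposons with at least as many reads as the least-read of the 6 elements, sorted from lowest to highest (x axis), with 95% counting intervals. The 6 elements, in orange, lie between -0.30 and 0.34; the point at the lower left is diver at -2.13.

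The 2 ChIPs compared directly gave every element the same sign. The siEgg ChIP over the siEGFP ChIP, with no input, gave log2 ratios of 0.44 for Stalker (0.36 to 0.51), 0.38 for Stalker4 (0.30 to 0.45) and 0.29 for 412 (0.19 to 0.39), against -0.10 for mdg1 (-0.17 to -0.04), -0.11 for blood (-0.18 to -0.04) and -0.20 for Stalker2 (-0.32 to -0.08). By their intervals 23 of the 51 well-read transposons were higher (45.1%) and 18 were lower (35.3%) in this comparison. The siEgg input over the siEGFP input gave smaller values, from -0.01 for 412 to 0.10 for Stalker2, and the interval excluded 0 for Stalker alone, at 0.09 (0.02 to 0.17).

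The inputs also show how far counting intervals can be trusted, because they hold chromatin that was not immunoprecipitated. Of the 51 well-read transposons 19 had an input ratio whose interval excluded 0 (37.3%), 14 of them higher (27.5%) and 5 lower (9.8%) in siEgg, and the standard deviation of their log2 input ratios was 0.09, against 0.04 from counting. The counting intervals are therefore too narrow for a comparison between these libraries. An input ratio at least as far from 0 as the change of the element was seen in 4 of the 51 transposons for mdg1, in 3 for blood, and in 1 each for Stalker2, 412, Stalker4 and Stalker. That 1 was Quasimodo in each case, with an input ratio of 0.41 (0.35 to 0.48), which also widens the standard deviation. The quartiles of the 51 input ratios were -0.03 and 0.07. The changes of mdg1 and blood are the ones nearest to the spread of the input ratios. An input ratio compares the inputs alone, while a change takes in the ChIPs as well and can vary more. These counts can therefore make a change look rarer than it is.

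Where the line of no change lies depends on the scaling. Over all genes the median log2 ChIP/input was -0.04 in siEgg and -0.30 in siEGFP, medians that lie 0.25 apart. Relative to that shift mdg1 was at -0.39 (-0.48 to -0.30), blood at -0.40 (-0.50 to -0.31) and Stalker2 at -0.56 (-0.73 to -0.39), all below it. Relative to it 412 was at 0.05 (-0.09 to 0.19), Stalker4 at 0.06 (-0.05 to 0.16) and Stalker at 0.09 (-0.01 to 0.19), and none of these 3 intervals excluded 0. By the same measure 31 of the 51 transposons were lower (60.8%) and 4 were higher (7.84%). The median of the genes' own changes was smaller, at 0.22, and taken as the centre it left Stalker at 0.12 (0.02 to 0.23), Stalker4 at 0.09 (-0.01 to 0.20) and 412 at 0.08 (-0.05 to 0.22). Whether Stalker was higher therefore depends on the choice of centre, while 412 and Stalker4 passed neither. With this centre 31 of the 51 were lower (60.8%) and 7 were higher (13.7%), and mdg1, blood and Stalker2 stayed below 0. With each library scaled by the reads of its gene rows, the values lay between those as deposited and those after either centring: 0.17 for 412, 0.18 for Stalker4 and 0.21 for Stalker, each with an interval above 0, and -0.26 for mdg1, -0.28 for blood and -0.43 for Stalker2. Sign and order of the 6 values are the same in the plot of the 3 scalings, and the distance between the upper and the lower elements does not depend on them.

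**Figure D4:**
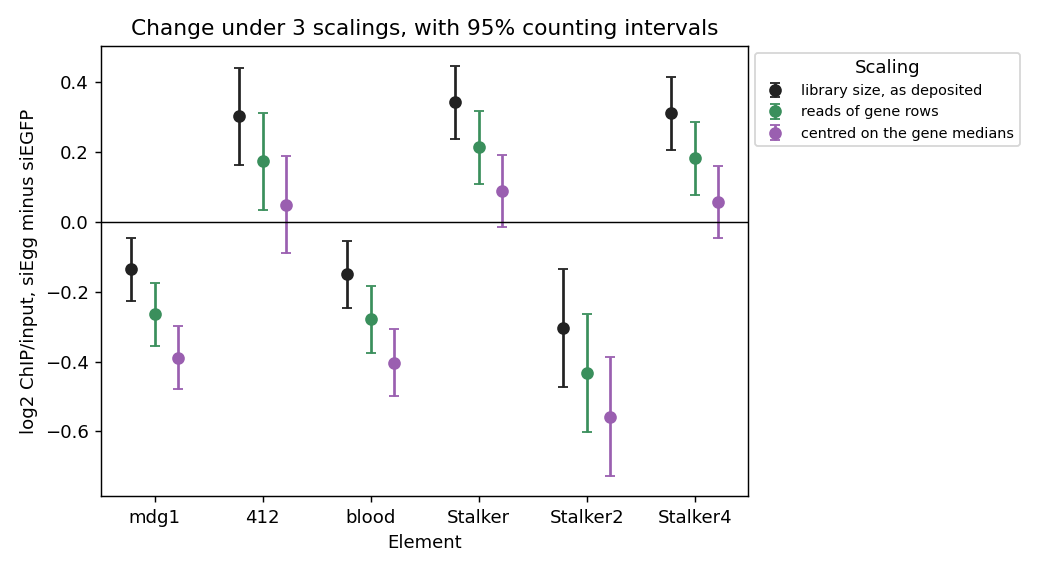
Change in log2 ChIP/input, siEgg minus siEGFP (y axis), of each element (x axis) under scaling by library size as deposited (black), by reads of gene rows (green) and after subtracting the 0.25 between the gene medians of the knockdowns (purple), with 95% counting intervals. mdg1, blood and Stalker2 are below 0 under all 3 scalings, and the intervals of 412, Stalker and Stalker4 reach 0 after centring.

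Differences between the elements are free of the scaling, since it moves all of them alike. With the values as deposited, an element whose interval lies above 0 and one whose interval lies below 0 differ beyond counting error by construction. Only the sizes of such differences are therefore given. Their intervals cover counting error only, which is too narrow between these libraries. Stalker and Stalker2 were furthest apart, with a difference in change of 0.65 (0.45 to 0.85), and Stalker2 and Stalker4 differed by -0.62 (-0.81 to -0.42). Among the 3 elements that were higher, and among the 3 that were lower, no pair differed in its change beyond counting error.

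Stalker and Stalker4 had similar ratios in the 4 libraries: the RPKM of Stalker over that of Stalker4 was 1.03 in the siEgg ChIP and 1.06 in the siEgg input, against 0.992 in the siEGFP ChIP and 1.04 in the siEGFP input, and their changes differed by 0.03 (-0.12 to 0.18). Reads shared between similar rows would also keep such a ratio steady, and the sharing of reads was not tested. The ratio of Stalker to Stalker2 was 3.43 in the siEgg ChIP and 2.95 in the siEgg input, against 2.201 in the siEGFP ChIP and 2.98 in the siEGFP input. With the reads of the 3 rows summed, the change was 0.22 (0.16 to 0.29), which has the sign of Stalker and Stalker4 and not that of Stalker2. The row Stalker3 had 372 recovered bases and 73 to 122 reads in a library. Its change of 0.44 had an interval from -0.13 to 1.01, which includes 0, while the siEgg ChIP over the siEGFP ChIP without inputs gave 0.53 (0.09 to 0.99).

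mdg1 and blood were also alike in all libraries, with mdg1 over blood at 1.17 in the siEgg ChIP and 1.12 in the siEgg input, against 1.16 in the siEGFP ChIP and 1.12 in the siEGFP input. Tabor, another LTR retrotransposon, had 0.28 (0.18 to 0.39) in siEgg and 0.41 (0.30 to 0.52) in siEGFP, values close to those of blood, and a change of -0.12 (-0.27 to 0.03). The elements that were higher had 15.3 to 29.3 gene equivalents in the siEgg input and row lengths of 7256 to 7567 bases, and those that were lower had 9.92 to 35.1 gene equivalents and lengths of 7410 to 7672 bases, so both ranges overlap.

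A list of 14 elements around gypsy, most of them known targets of the somatic piRNA pathway, gave 6 lower and 1 higher by the interval. The higher element was Idefix, an LTR retrotransposon, at 0.28 (0.15 to 0.41). gypsy itself, whose envelope gene lets it pass between cells, was at -0.79 (-0.84 to -0.75), with 0.18 in siEgg and 0.97 in siEGFP. The element 17.6 fell furthest, at -0.85 (-0.94 to -0.76). The others that were lower were springer at -0.59, gtwin at -0.41, opus at -0.29 and Quasimodo at -0.17. The list had a median change of -0.19, beside 0.08 over the 6 elements, -0.02 over all transposons and 0.22 over all genes tested. It includes rows with few reads, such as Tirant with 9 to 16 in a library and an interval of -1.74 to 1.33. As background for this list and the next, 24.6% of all 122 transposons were lower and 25.4% higher by the interval. Of the 51 well-read transposons 37.3% were lower and 33.3% higher. A second list, of 10 elements chosen as being under germline piRNA control or of other groups, gave 4 higher and 3 lower. The lower ones were diver at -2.13 (-2.22 to -2.04), the telomeric retrotransposon HeT-A at -0.80 (-1.003 to -0.60) and Juan at -0.14 (-0.27 to -0.02). The higher ones were roo, an LTR retrotransposon of the BEL/Pao group, at 0.45 (0.40 to 0.50), jockey at 0.36 (0.25 to 0.48), Burdock at 0.33 (0.08 to 0.58) and the I-element, a retrotransposon without LTRs, at 0.27 (0.17 to 0.37). The 3 transposons nearest to the median of the 6 elements in both enrichments were copia, gypsy11 and G4, at distances of 0.05, 0.06 and 0.06 in log2 units over the 2 ratios. copia, an LTR retrotransposon of another superfamily with 7285 to 7943 reads in a library, had 0.32 in siEgg and 0.33 in siEGFP, and gypsy11 and G4 had 179 to 408 reads in a library. None of the 6 elements lies near that median in siEGFP, so these neighbours match the middle of the set and not its members.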

How the data were processed

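The data came as 1 table of the whole series with 4 value columns, Egg ChIP and input of siEgg and of siEGFP cells. Per the submitters' processing notes, reads were mapped with Bowtie2 2.2.4 and the build was dm6; the counting over transposon rows is not given in the sources used here. The deposited values behave as RPKM, the authors' reads divided by row length and library size: with row lengths anchored on gene spans from RefSeq (Release 6 assembly), whole reads were obtained within 0.0001 reads in all 34762 rows that were not 0 throughout (100%), 4929 with a row length equal to the gene span. No count model was fitted, because 1 column per group leaves no residual degrees of freedom.

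Reads and RPKM of all rows of a gene were summed. Enrichment was log2 of ChIP over input with a pseudocount of 0.7 RPKM, and the change was siEgg minus siEGFP. Genes (12487 of 16577) and transposons (122 of 175) were tested if at least 2 libraries had 10 or more reads and at least 2 exceeded the pseudocount; all 6 elements passed. Intervals at 95% were exact for ratios (Clopper-Pearson, on one library's share of the reads of both) and normal, with 0.5 added to each read number, for changes. They cover counting error only, since 1 column per group holds no spread between replicates. Reads without molecular identifiers are not independent molecules, so the intervals can be too narrow even for counting error. A call needed a log2 size of at least 1 and an interval excluding 0. The recovery and the intervals were tested on simulated data with Poisson reads. That setting lacks the extra spread seen between the inputs, so it does not show how well the intervals cover differences between these libraries. Python 3.11.15, numpy 2.4.6, pandas 2.3.3, scipy 1.17.1 and matplotlib 3.10.9 were used.

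The elements, the lists and the rule for named transposons (all 6 elements, Stalker3, Tabor, and the 3 nearest to the median of the elements) were chosen with earlier results of these data known. The other transposons named, such as diver, gypsy and Idefix, come from the lists and were named outside that rule. The comparison with well-read transposons, the pairs of elements, the shares without diver and the centring on the median of the genes' own changes were added after the values were seen. Alternatives of scaling, pseudocount, filter and input were tried, with their effect in the closing section.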

Additional observations from a re-analysis of the deposited data

How the results depend on the processing

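Direction and interval call of all 6 changes held with no pseudocount or one 5 times larger, without inputs and with scaling by gene rows. They also held with both inputs pooled, but a pooled input cancels from the change. Pooling therefore gives the same values as leaving the inputs out and is not a separate check. Dropping the read filter, or asking for at least 20 reads in each input, could not alter these values. Every element had at least 1019 reads in each library. After centring on the gene medians of the knockdowns 0 elements were higher, and with the median of the genes' own changes as the centre, an alternative chosen after seeing the data, 1 was (Stalker). The median change of the elements, which lies between the 2 sets, was -0.17 and -0.13 under these centres and -0.045 with scaling by gene rows. The median siEGFP enrichment was 0.59 after centring on the gene medians and 0.45 with scaling by gene rows. The median siEgg enrichment was 0.38 and 0.37 under the same settings. Both settings thus put the siEgg median below that of siEGFP, the reverse of the values as deposited. With the interval alone in place of the 2-fold rule, which called 0 elements in each comparison, 6 elements were enriched in siEgg, 5 in siEGFP and 6 changed. By the interval alone 62.7% of the 51 well-read transposons were enriched in siEgg and 58.8% in siEGFP. For the change, 33.3% of them were higher and 37.3% were lower in siEgg. The siEGFP value of 412 passed its interval after centring (0.34) and with scaling by gene rows (0.20), and that of Stalker no longer passed with pooled inputs (0.05). Stalker2 reversed to 0.22 when the 3 Stalker rows were summed, a sum in which it holds 1019 of the 7564 reads of the siEgg ChIP. Gene equivalents moved with the genes used as the measure, mdg1 for example to 37.6 in siEgg and 34.0 in siEGFP against genes with 1 row. No paired analysis was possible because the columns carry no replicate number, and no replicate could be left out for the same reason. Depth limits the interval of a change to about 0.09 on either side at mdg1 and 0.17 at Stalker2, and says nothing of the spread between cultures.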
